A study of Homo sapiens with 12 samples.

Results

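Many, but not all, zinc finger gene clusters of human chromosome 19 lie in 4 windows (hg19). KDM2B peaks with their midpoint in one of these windows are described here. The windows run at 20 to 24.4 Mb (band 19p12), 36.5 to 38.5 Mb (19q13.12 and the start of 19q13.13), 43.9 to 45.1 Mb (19q13.31) and 52.0 to 59.1 Mb (19q13.41 to 19q13.43), and cover 14.7 Mb. They were chosen by position and not by any measured value. Of the 79473 peaks in the 7 lists, 4777 lay on chromosome 19 and 529 in the windows. Outside them 3 peaks lay in the centromeric bands, and the 4245 others, in 40.2 Mb, served for comparison.

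The peaks come from chromatin immunoprecipitation with sequencing (ChIP-seq) of KDM2B in 7 human leukaemia cell lines grown in IMDM medium with serum, with 1 library and 1 peak list per line. DND41, HPB-ALL, JURKAT and SIL-ALL derive from T-cell acute lymphoblastic leukaemia (T-ALL). The other lines are K562, from a chronic myeloid leukaemia, and REH and SUP-B15, both from acute lymphoblastic leukaemia of B-cell precursors (B-ALL). These origins are background knowledge of the lines and are not in the labels. No line had a replicate library, and a line is a single culture of a single tumour, so tests over lines cannot separate differences between lines from those between libraries. Lists held 12765 to 15304 peaks in T-ALL lines and 5942 to 8146 in the other lines, the number of reads behind them is unknown, and intervals below cover counting error only.

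KDM2B is a demethylase of histone H3 that docks on DNA through a CXXC domain, which recognises CpG dinucleotides that carry no methyl group, and it brings a variant Polycomb complex to CpG islands. KRAB zinc finger genes form the largest family of human transcription factors. Their proteins bind DNA through tandem zinc fingers, many of them on transposable elements, and recruit the corepressor TRIM28 (KAP1), which brings H3K9 methyltransferases. The genes multiplied by tandem duplication, so neighbours in a cluster resemble each other in sequence.

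In the RefSeq gene table (GRCh38.p14), chromosome 19 held 246 of the 509 protein-coding genes with a ZNF symbol (48.3%). In gene order, 171 of them stood in 15 runs of 5 or more neighbours with no other protein-coding gene in between. The longest run had 27 genes, from ZNF737 to ZNF681, and belongs to band 19p12 by textbook knowledge. The next had 24 genes, from ZNF627 to ZNF791 in 19p13.2, which lies outside the windows and in the region used for comparison. Runs of 20 genes each went from ZNF566 to ZNF793 (19q13.12) and from ZNF283 to ZNF180 (19q13.31). The table has another build than the peaks, so peaks were not assigned to genes, and the bases under the peaks are not shown.

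The promoters of these genes were compared for CpG content just upstream of the start, and the clusters as a whole were not measured. The 250 bases upstream of the start were taken from RefSeq (GRCh38.p14) for 1 promoter per gene, and CG, which reads the same on both strands, was counted. The choice to count it was made after the peak values were known. Below are the promoters with the fewest, the middle number and the most CpGs in the run from ZNF737 to ZNF681, and the middle one of the run from ZNF566 to ZNF793. Capitals mark each CpG.
ZNF708 (GRCh38.p14, chr19:21329411-21329660, minus strand): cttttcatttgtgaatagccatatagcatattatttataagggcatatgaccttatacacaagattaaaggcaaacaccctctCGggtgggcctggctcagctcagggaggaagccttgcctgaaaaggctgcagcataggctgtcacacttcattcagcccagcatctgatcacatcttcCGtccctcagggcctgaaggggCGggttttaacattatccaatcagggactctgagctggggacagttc
ZNF714 (GRCh38.p14, chr19:21081953-21082202, plus strand): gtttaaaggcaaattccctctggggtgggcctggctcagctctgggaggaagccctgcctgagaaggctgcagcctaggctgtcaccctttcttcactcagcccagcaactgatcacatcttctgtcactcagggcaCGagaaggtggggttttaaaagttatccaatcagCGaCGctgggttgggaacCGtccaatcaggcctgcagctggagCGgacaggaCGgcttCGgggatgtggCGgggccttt
ZNF492 (GRCh38.p14, chr19:22634074-22634323, plus strand): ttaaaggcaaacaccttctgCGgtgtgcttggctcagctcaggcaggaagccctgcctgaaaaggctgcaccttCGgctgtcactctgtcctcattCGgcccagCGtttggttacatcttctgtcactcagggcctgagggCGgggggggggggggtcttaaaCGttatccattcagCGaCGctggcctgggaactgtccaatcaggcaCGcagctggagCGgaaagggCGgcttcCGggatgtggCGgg
ZNF568 (GRCh38.p14, chr19:36916082-36916331, plus strand): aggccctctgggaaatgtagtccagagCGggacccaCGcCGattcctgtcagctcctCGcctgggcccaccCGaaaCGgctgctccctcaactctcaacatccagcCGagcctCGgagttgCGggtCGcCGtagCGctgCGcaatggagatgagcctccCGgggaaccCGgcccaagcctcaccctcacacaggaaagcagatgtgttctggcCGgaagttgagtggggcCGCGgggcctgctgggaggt

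ZNF708 had 3 CpGs, ZNF714 had 8 and ZNF492 had 13, against 18 in ZNF568. Over the 216 ZNF genes of chromosome 19 with a promoter in the table the median was 16 CpGs, and over the 969 other coding genes of the chromosome it was 17. The 21 promoters of the run from ZNF737 to ZNF681 had a median of 8, from 3 to 13, and 0 of them reached an observed-to-expected CpG ratio of 0.6, a usual mark of a CpG island. The neighbouring run from ZNF101 to ZNF486 had a median of 8.5 over 6 promoters, of which 1 reached that ratio. The medians of the 14 other runs lay between 8.5 and 27. In the run from ZNF566 to ZNF793 the median was 17, and 16 of 20 promoters reached the ratio. In the run from ZNF283 to ZNF180 it was 13, and 13 of 16 did. The run from ZNF627 to ZNF791, outside the windows, had a median of 12, and 9 of 23 promoters reached the ratio. At least 1 CpG was present in 96.9% of all 15843 coding promoters, and 63.4% reached the ratio.

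**Figure D1:**
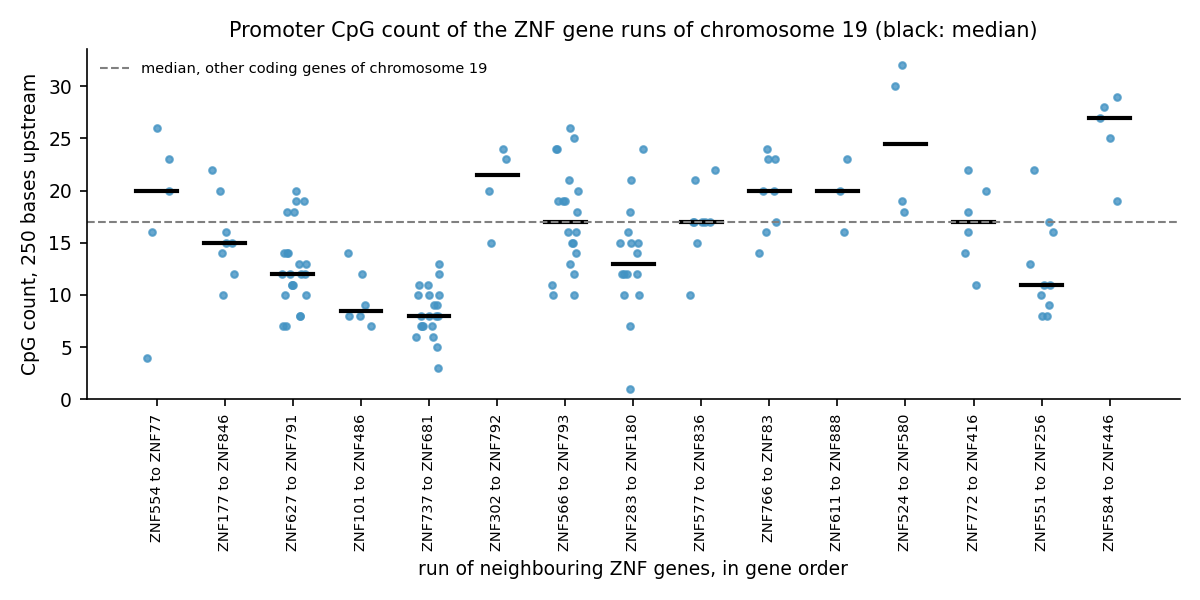
CpG count in the 250 bases upstream of each ZNF gene (vertical axis) by run of neighbouring ZNF genes in the order of chromosome 19 (horizontal axis); points are genes, black bars medians, and the dashed line the median of the other coding genes of the chromosome, 17. The run from ZNF737 to ZNF681 lies wholly at 13 or below.

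KDM2B peaks were less dense in the windows together than in the rest of chromosome 19 in every line. The windows together held 9.25 peaks per Mb in DND41, 8.23 in HPB-ALL, 6.33 in JURKAT, 6.26 in SIL-ALL, 2.99 in REH, 1.29 in K562 and 1.63 in SUP-B15. The rest of the chromosome held 23.2 peaks per Mb in DND41, 14.9 in HPB-ALL, 15.8 in JURKAT, 19.3 in SIL-ALL, 13.27 in REH, 8.30 in K562 and 10.8 in SUP-B15. In each line the 95% Poisson intervals of the 2 densities did not overlap. The density in the windows was lower by 1.81-fold in HPB-ALL at the least and by 6.64-fold in SUP-B15 at the most. The log2 ratio of windows to rest, with 0.5 peaks added to each count, averaged -1.80 ± 0.71 (SD, n = 7 lines; exact sign-flip permutation p = 0.0156, two-sided, the smallest value 7 lines allow). With band 19p13.2 and its zinc finger genes left out of the comparison region, added after the values were known, it was -1.83. All 7 lines share one reference genome, so the test covers the spread between these lines and nothing beyond them.

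The contrast depends on what the windows are set against, and the rest of chromosome 19 was denser in peaks than the other autosomes in every line. On the other autosomes, outside centromeric, variable and stalk bands, the lines had 5.25 (DND41), 4.55 (HPB-ALL), 5.35 (JURKAT), 5.45 (SIL-ALL), 2.11 (K562), 2.87 (REH) and 2.69 (SUP-B15) peaks per Mb. Against this density the windows together did not differ past the threshold (mean log2 ratio 0.12, exact sign-flip permutation p = 0.625). With 0.5 peaks added to each count, the log2 ratio of the 52.0 to 59.1 Mb window was positive in 7 of 7 lines (mean 0.80, Benjamini-Hochberg adjusted exact permutation p = 0.0312 over the 4 windows). In SUP-B15 it was only 0.031, and the measured density was 2.676 peaks per Mb in the window against 2.688 on the other autosomes. The sign in that line, on which this p-value depends, thus rests on the added 0.5 peaks. Only the 19p12 window was lower in 7 of 7 lines there too, by log2 -2.39 in JURKAT, -2.07 in DND41, -2.12 in SIL-ALL and -2.15 in HPB-ALL.

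The 19p12 window had the fewest called peaks per Mb in every line. It held 4 peaks in JURKAT, 5 in DND41, 5 in SIL-ALL and 4 in HPB-ALL, and 0 in K562, REH and SUP-B15. In T-ALL lines that is 0.909 to 1.14 peaks per Mb, 16.4- to 20.4-fold below the rest of the chromosome in the same list. A count of 0 in 4.4 Mb allows up to 0.682 peaks per Mb (3 counts per list), so the density was at least 12.2-fold lower than in the rest of the chromosome in K562, at least 19.5-fold lower in REH and at least 15.9-fold lower in SUP-B15. The direction was the same in 7 of 7 lines (adjusted exact sign-flip permutation p = 0.0156 over the 4 windows). With 18 peaks in 7 lists, 4.09 per Mb, band 19p12 had the lowest density of the 17 bands outside the centromere; the next was 19q12 with 19.5 per Mb. The low CpG count of the 19p12 promoters stands beside this. Band 19p13.2, with the run from ZNF627 to ZNF791 and its median of 12 CpGs, had 94.6 peaks per Mb. The part of promoter CpG count in the result was not tested. How reads that match several of these similar genes were treated is not given in the sources consulted, so the values count called peaks and do not measure absence of KDM2B.

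The 18 peaks of the 19p12 window were scattered and of middling rank by the authors' score, which is set here on a percentile scale within each list because scores of different lists are not on a known common scale. Of its 44 segments of 100 kb, 34 (77.3%) had no peak in any line, and 3 stretches without any peak measured 763, 736 and 727 kb. The fullest segment, from 24.1 to 24.2 Mb, held 5 peaks in SIL-ALL and 2 in JURKAT. The peaks merged into 15 regions, of which 12 were called in 1 line and 3 in a pair of T-ALL lines. One of the 3, chr19:24185436-24185591, had scores of 134 in SIL-ALL and 86.3 in JURKAT, at percentiles 48.2 and 55.7 of their lists. The others were chr19:24184884-24185078 (SIL-ALL and JURKAT) and chr19:23456897-23457144 (HPB-ALL and JURKAT). No peak of the window passed percentile 76.7, reached by chr19:24184076-24184227, a site of SIL-ALL alone with a score of 256.

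The 36.5 to 38.5 Mb window, in 19q13.12, had peaks mainly in T-ALL lines. It held 12 peaks in JURKAT, 18 in DND41, 8 in SIL-ALL and 25 in HPB-ALL, against 1 in REH, 2 in K562 and 1 in SUP-B15. The sides did not overlap in number, but neither did they in the rest of the chromosome (599 to 932 peaks against 334 to 534). As shares of chromosome 19 peaks they did not overlap in this window either, with 0.922 to 3.46% against 0.173 to 0.567%. The lineage test on these shares, given below, stayed above 0.05 (exact permutation p = 0.0571, adjusted 0.0714). The density in the window was 4 to 12.5 peaks per Mb in T-ALL lines and 0.5 to 1 in the others. It was below the rest of the chromosome in 7 of 7 lines, with a mean log2 ratio of -2.26 ± 1.43 (SD, n = 7; adjusted exact sign-flip permutation p = 0.0156). In HPB-ALL the difference was small, 12.5 peaks per Mb in the window against 14.9 in the rest, and the interval of the window (8.09 to 18.5) included the density of the rest. Of the 34 regions of this window 30 (88.2%) held T-ALL peaks only, against 52.5% in the rest of the chromosome and 56.1% over the genome. None was called in all 4 T-ALL lines, and the most widely shared was chr19:38397386-38398554 with scores of 224 in DND41, 123 in JURKAT, 206 in SIL-ALL and 101 in K562. Next came chr19:38145543-38146418, called in DND41, HPB-ALL and JURKAT, and chr19:36605429-36606001, called in HPB-ALL, JURKAT and SIL-ALL.

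The 43.9 to 45.1 Mb window, in 19q13.31, held 6 peaks in JURKAT, 15 in DND41, 10 in SIL-ALL and 15 in HPB-ALL, against 3 in REH, 1 in K562 and 4 in SUP-B15. Its density was 5 to 12.5 peaks per Mb in T-ALL lines and 0.833 to 3.33 in the other lines, and lower than in the rest of the chromosome in 7 of 7 lines (mean log2 ratio -1.46 ± 0.84, SD, n = 7; adjusted exact sign-flip permutation p = 0.0156). HPB-ALL again had 12.5 peaks per Mb there, with an interval up to 20.6 that included its density in the rest. The peaks crowded at one end. The segment from 44.0 to 44.1 Mb held 24 peaks and the next, to 44.2 Mb, held 16, out of 54 in the window. The most shared region there was chr19:44030836-44031501, called in the 4 T-ALL lines and SUP-B15, with scores of 69.8 in JURKAT, 216 in DND41, 216 in SIL-ALL, 102 in HPB-ALL and 64.9 in SUP-B15. Close by, chr19:44123284-44124149 was called in the 4 T-ALL lines and no other, with scores of 70.9 in JURKAT, 106 in DND41, 180 in SIL-ALL and 256 in HPB-ALL. Between them chr19:44098853-44099457 was called in HPB-ALL, JURKAT and SIL-ALL, at a mean percentile of 65.4.

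The 52.0 to 59.1 Mb window held most of the peaks, 390 of 529, and they were concentrated in its middle. It had 71 peaks in JURKAT, 98 in DND41, 69 in SIL-ALL and 77 in HPB-ALL, against 40 in REH, 16 in K562 and 19 in SUP-B15. The density of 9.72 to 13.8 peaks per Mb in T-ALL lines and 2.25 to 5.63 in the other lines was below that of the rest of the chromosome in 7 of 7 lines (mean log2 ratio -1.12 ± 0.59, SD, n = 7; adjusted exact sign-flip permutation p = 0.0156). Band 19q13.42, which besides zinc finger genes holds the leukocyte receptor genes of the LILR and KIR families, carried 245 of these peaks, 90.7 per Mb over the 7 lists. The flanking parts carried less, 30.0 per Mb in 19q13.41 and 34.6 per Mb in 19q13.43. With 19q13.42 left out, an alternative added after the values were known, the mean log2 ratio of this window was -2.07 (adjusted exact sign-flip permutation p = 0.0156).

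Within 19q13.42 the peaks were unevenly placed. DND41 had 58 peaks in the band, HPB-ALL 41, JURKAT 51 and SIL-ALL 41, against 26 in REH, 14 in K562 and 14 in SUP-B15. The segments from 55.8 to 55.9 Mb (34 peaks) and from 55.9 to 56.0 Mb (31 peaks) had peaks in all 7 lines. The fullest segment, 56.1 to 56.2 Mb, had 35 peaks, of which 34 were T-ALL peaks and 1 a REH peak. In the segment from 54.3 to 54.4 Mb the sides were nearly even. It held 6 peaks in REH, 4 in SUP-B15 and 3 in K562, beside 6 in JURKAT, 5 in SIL-ALL, 1 in HPB-ALL and 0 in DND41. A stretch of 577 kb from 54976381 to 55553527 had no peak in any list. The telomeric end of the long arm filled again, with 22, 25 and 20 peaks in the last 3 segments of 100 kb.

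**Figure D2:**
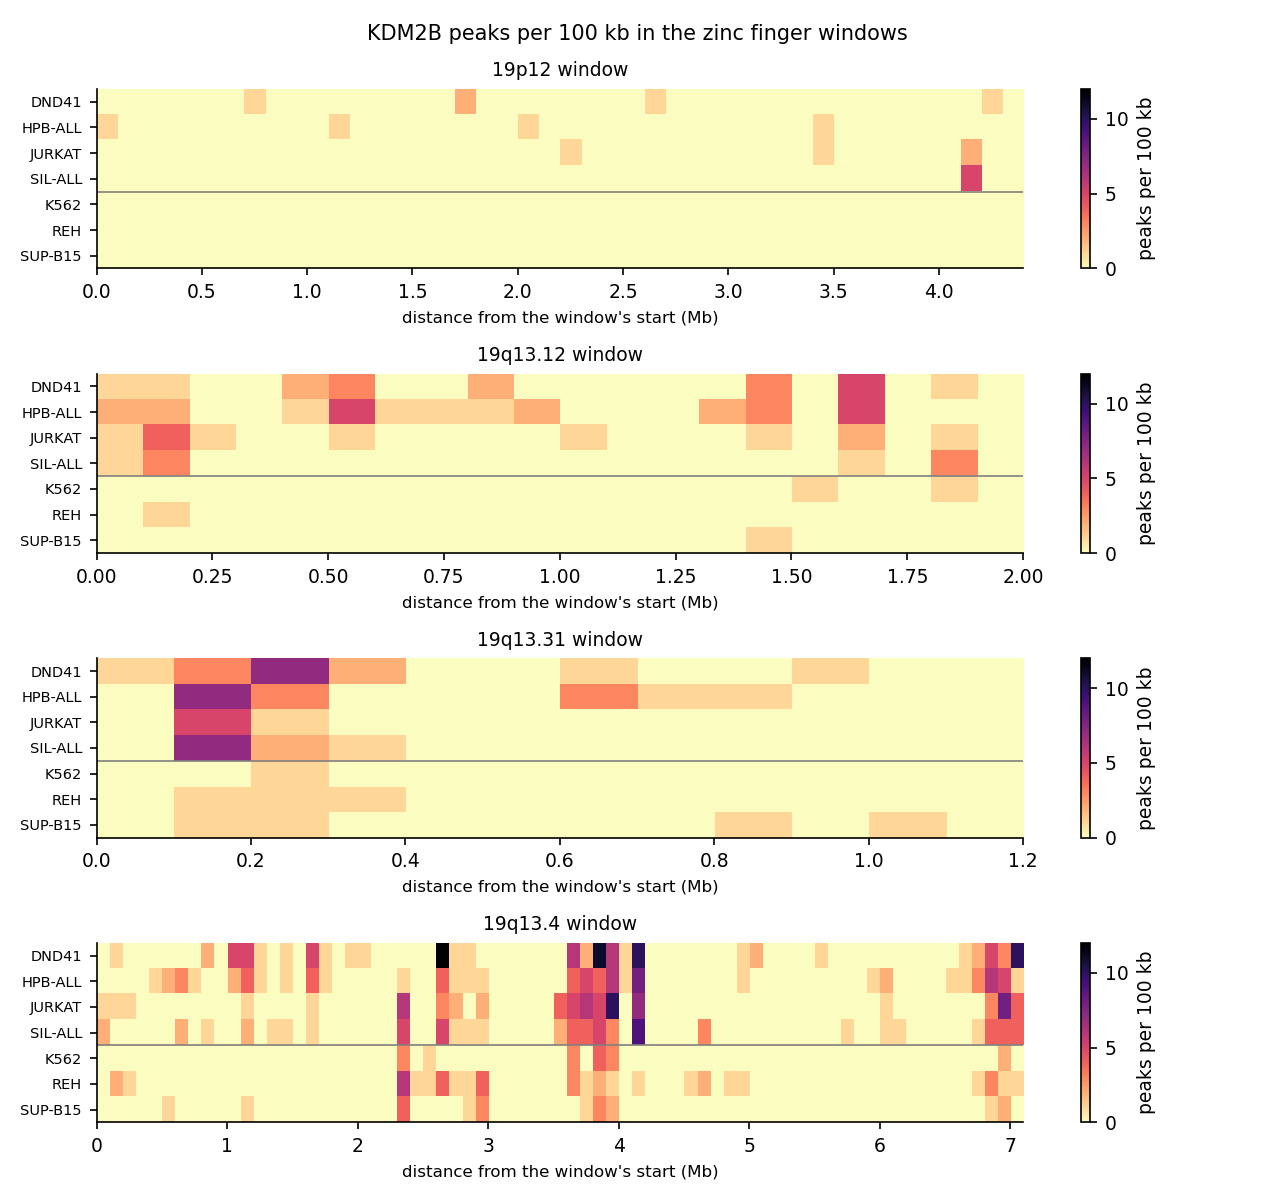
KDM2B peaks per 100 kb (colour) along each window, by distance from its start (horizontal axis, Mb), with 1 row per line, T-ALL lines above the grey rule and the other lines under it. The 19p12 window is empty in K562, REH and SUP-B15, and the 19q13.4 window (52.0 to 59.1 Mb) has its fullest segment at 56.1 to 56.2 Mb, where K562 and SUP-B15 have 0 peaks.

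**Figure D3:**
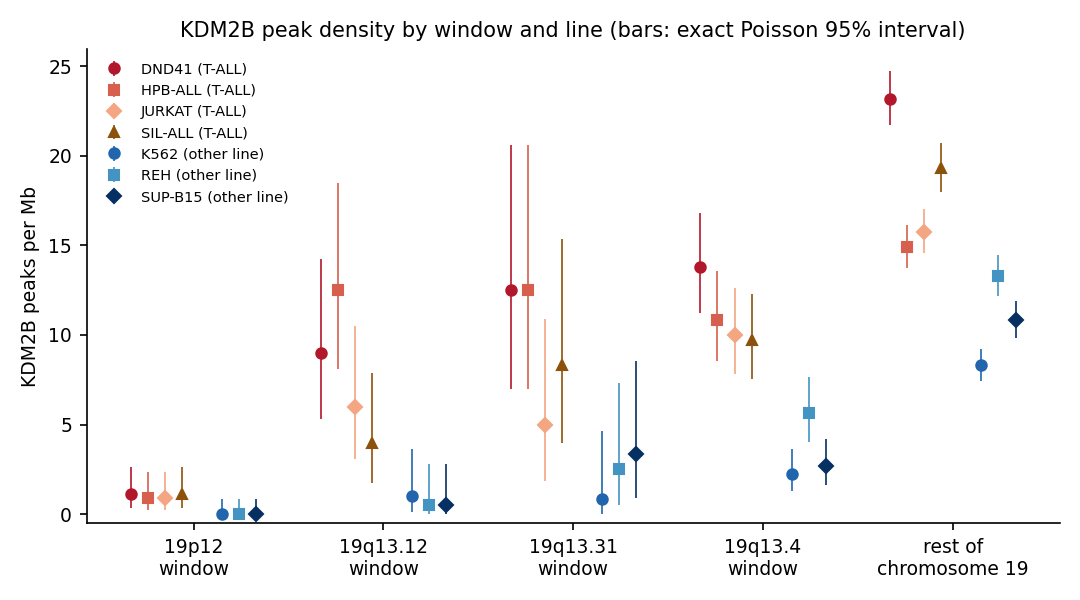
KDM2B peaks per Mb (vertical axis) in each window and in the rest of chromosome 19, 1 point per line with its exact Poisson 95% interval, T-ALL lines left of the other lines. The 19q13.12 window is that of 36.5 to 38.5 Mb and the 19q13.4 window that of 52.0 to 59.1 Mb. Densities of 0 to 1.14 per Mb in the 19p12 window stand against 8.30 to 23.2 per Mb in the rest.

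Peaks of all lists within 100 kb of a window edge were few at 6 of the 8 edges, with 0 to 3 on either side. At 36.5 Mb 5 peaks lay inside the edge and 19 outside. At 59.1 Mb 20 lay inside, and the chromosome ends too close for a comparison. Over all windows 66 of the 147 segments of 100 kb had no peak of any line (44.9%), against 88 of 402 in the rest of the chromosome (21.9%), and the median segment held 1 peak in the windows and 6 in the rest.

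T-ALL lines placed a larger share of their chromosome 19 peaks in the windows than the other lines did. The share was 12.7% in DND41 (Wilson 95% interval 10.9 to 14.9%), 16.8% in HPB-ALL (14.2 to 19.7%), 12.8% in JURKAT (10.6 to 15.4%) and 10.6% in SIL-ALL (8.72 to 12.8%). It was 5.38% in K562 (3.47 to 8.25%), 7.61% in REH (5.72 to 10.1%) and 5.22% in SUP-B15 (3.53 to 7.65%). The sides did not overlap. The 4 T-ALL lines averaged 13.22 ± 2.57% (SD, n = 4), against 6.07 ± 1.34% (SD, n = 3) for K562, REH and SUP-B15, a difference of 7.15 percentage points with an exact permutation p of 0.0286 (two-sided, the smallest that 35 splits of the lines allow) and an adjusted value of 0.0476 over 5 such comparisons. For the 19p12 window the difference was 0.537 percentage points and for the 52.0 to 59.1 Mb window 4.19, each with the same exact permutation p of 0.0286 and adjusted value of 0.0476. The 19p12 value sets 4 or 5 peaks per T-ALL line against counts of 0, which allow shares of up to 0.519% in REH, 0.850% in K562 and 0.652% in SUP-B15 (3 counts per list), while T-ALL shares were 0.468 to 0.576%. These limits exceeded every T-ALL share in K562 and SUP-B15 and lay inside the T-ALL range in REH. Counts this small cannot settle that difference list by list, and it was not tested on pooled lists. For the 36.5 to 38.5 Mb window it was 1.61 (exact permutation p = 0.0571, adjusted 0.0714) and for the 43.9 to 45.1 Mb window 0.807 (exact permutation p = 0.0857), and neither passed the threshold of 0.05.

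List length, score floor and available controls moved with this difference. K562, REH and SUP-B15 each had an input library among the samples, as did HPB-ALL and SIL-ALL, and none was listed for DND41 or JURKAT; its part in the result was not tested. T-ALL lists were longer, and their lowest score was 80 in SIL-ALL and HPB-ALL, 60 in DND41 and 50 in JURKAT, against 50 in each of the other lines. With every list reduced to its 5942 top-scored peaks, the share was 10.7% in JURKAT, 10.3% in DND41, 10.5% in SIL-ALL and 14.9% in HPB-ALL, against 6.85% in REH, 5.38% in K562 and 4.70% in SUP-B15. The difference was then 5.97 percentage points, the exact permutation p stayed at 0.0286 and the adjusted value was 0.0714, above the threshold of 0.05. With a common score floor the difference was 7.56 points and the adjusted exact permutation p 0.0476. As a share of the whole list in place of chromosome 19, it was 0.379 percentage points, in the same direction (exact permutation p = 0.0571, adjusted 0.0952). With the whole list as the total the threshold was thus not passed.

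**Figure D4:**
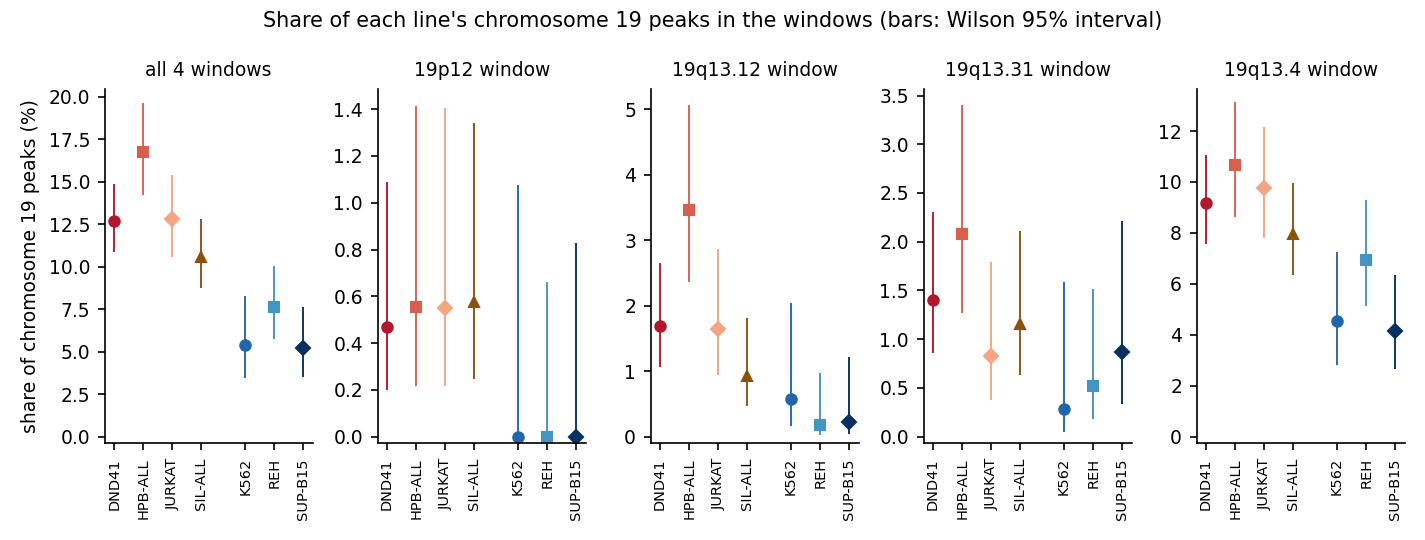
Share of each line's chromosome 19 peaks (vertical axis, %) in all windows and in each window, with Wilson 95% intervals; T-ALL lines are left of the other lines, and each panel has its own scale. In the first panel T-ALL lines lie between 10.6 and 16.8% and the other lines between 5.22 and 7.61%.

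Over all windows, peaks did not differ past the threshold in width or rank from those elsewhere on the chromosome. The median width in the windows and in the rest was 197 and 191 bp in DND41, 213 and 236 bp in HPB-ALL, 205 and 217.5 bp in JURKAT, 186.5 and 203 bp in SIL-ALL, 519 and 476 bp in K562, 196.5 and 194 bp in REH, and 272 and 315.5 bp in SUP-B15. The mean log2 ratio was -0.05 ± 0.12 (SD, n = 7; exact sign-flip permutation p = 0.281). The median score percentile in the windows was 30.7 to 56.9, against 42.4 to 46.8 in the rest, with a mean difference of -3.19 ± 8.97 points (SD, n = 7; exact sign-flip permutation p = 0.391). Single lines decided this value: K562 had 56.9 in the windows against 44.3 in the rest, and SUP-B15 had 30.7 against 46.7. Without K562 the difference was -5.84 points (exact sign-flip permutation p = 0.0312) and without SUP-B15 it was -1.05 points (exact sign-flip permutation p = 0.781). Without band 19q13.42, a look added after the values were known, the peaks of the windows were narrower in 7 of 7 lines (mean log2 ratio -0.21) and lower in rank in 7 of 7 lines (mean difference -11.4 points), each with an exact sign-flip permutation p of 0.0156.

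Few sites in the windows were common to the lines. The 529 peaks merged into 280 regions (at least 1 bp of overlap), of which 188 (67.1%) were called in 1 line alone, against 62.6% in the rest of chromosome 19 and 58.2% over the genome. Peaks of 2 or more lines were found in 92 regions (32.9%; 37.4% in the rest, 41.8% over the genome) and of 5 or more lines in 13 regions (4.64%; 7% in the rest, 11% over the genome). All 7 lines shared 2 regions (0.714%; 1.40% in the rest, 2.44% over the genome). Overlaps can chain in a merged region, so the peaks of its lines need not all overlap each other. Of the 13 regions with 5 or more lines, 12 lay in the 52.0 to 59.1 Mb window, 9 of them in 19q13.42. These shares are a description and were not tested.

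**Figure D5:**
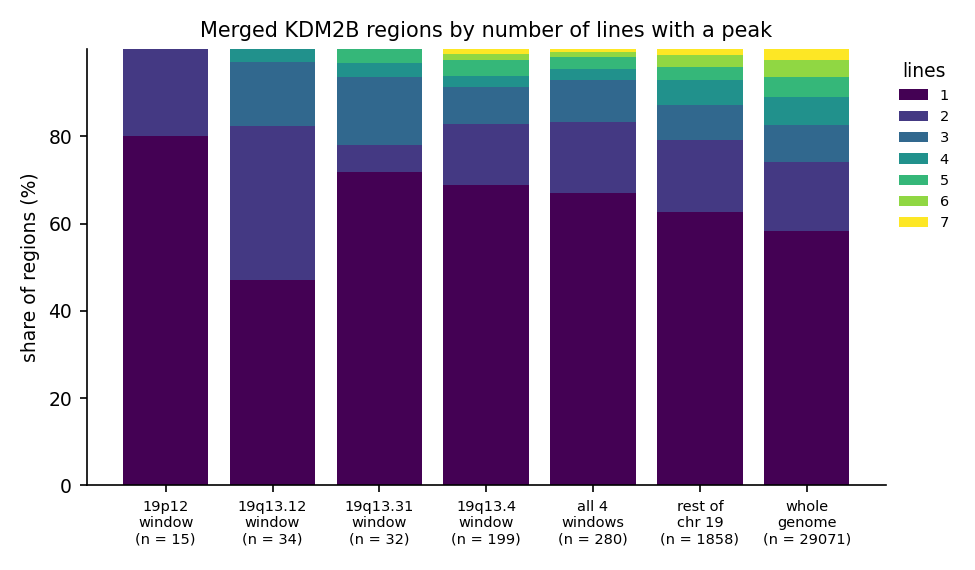
Share of merged KDM2B regions (vertical axis, %) by the number of lines with a peak in them (colour), for each window, all windows, the rest of chromosome 19 and the whole genome, with the number of regions under each bar. No region of the 19p12 window has more than 2 lines.

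The highest-ranking region shared by lines was common to all lines. The region chr19:55987767-55988885 in 19q13.42 had scores of 819.8 in JURKAT, 1171 in DND41, 1453 in SIL-ALL and 1079 in HPB-ALL, and of 391 in REH, 496 in K562 and 616 in SUP-B15. It ranked between percentile 97.2 (K562) and 99.4 (JURKAT) of each list. The other region of all lines, chr19:58919240-58920479 in 19q13.43, ranked lower, with scores of 104 in JURKAT, 181 in DND41, 96.7 in SIL-ALL, 298 in HPB-ALL, 81.0 in REH, 61.9 in K562 and 64.1 in SUP-B15. Its mean percentile was 54.3, and with the common score floor it was left in 5 lines. Without JURKAT the count of regions common to all remaining lines was 1, and without any other line it was 2 or 3. In 1 of the 2 regions a JURKAT peak thus joined peaks that were otherwise separate.

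Other broadly shared sites lay in 19q13.42. The region chr19:54899629-54900439 was called in the 4 T-ALL lines, REH and SUP-B15, with scores of 183 in JURKAT, 200 in DND41, 670 in SIL-ALL, 291 in HPB-ALL, 131 in REH and 72.1 in SUP-B15. The region chr19:55627650-55629395 was called in all lines but SUP-B15, and ranked highest in SIL-ALL, at percentile 95.6 with a score of 776. The region chr19:55895209-55896334 was called in all lines but REH, and ranked highest in SUP-B15, at percentile 90.5 with a score of 195. The last pair was chosen after their values were seen.

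Regions with T-ALL peaks and no other made up most of the windows' sites: 217 of 280 (77.5%) had peaks of 1 or more T-ALL lines only, against 52.5% in the rest of the chromosome and 56.1% over the genome. Conversely 32 (11.4%) had peaks of K562, REH or SUP-B15 only, against 27.0% in the rest of the chromosome. Sites of all 4 T-ALL lines and no other were few, 4 regions or 1.43%, near the 1.35% of the rest and under the 2.25% of the genome. The highest in mean rank was chr19:55770024-55771073, with scores of 103 in JURKAT, 294 in DND41, 405 in SIL-ALL and 321 in HPB-ALL. Leaving out DND41, JURKAT or SIL-ALL gave 10 such regions of the remaining T-ALL lines, and leaving out SUP-B15 gave 8. No region was called in K562, REH and SUP-B15 without a T-ALL line, where the rest of the chromosome had 2 of 1858 (0.108%) and the genome 0.193%.

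The most frequent set of lines beyond single lines was DND41 with HPB-ALL, which shared 16 regions (5.71%) that no other line had, against 34 of 1858 (1.83%) in the rest of the chromosome. Both B-ALL lines alone shared 2 regions (0.714%; 1.18% in the rest of the chromosome, 1.07% over the genome). The higher was chr19:54370673-54371260, which scored 117 in REH and 76.0 in SUP-B15. Next to it, chr19:54371538-54372812 was called in SIL-ALL (758), JURKAT (130), K562 (199), REH (84.3) and SUP-B15 (115), and not in DND41 or HPB-ALL. By line, the share of regions also called in another line was 51.3% in DND41, 59.3% in HPB-ALL, 64.9% in JURKAT, 62.5% in SIL-ALL, 48.7% in REH, 66.7% in K562 and 81.0% in SUP-B15. In the rest of the chromosome it was 60.6% (DND41), 74.9% (HPB-ALL), 72.7% (JURKAT), 71.5% (SIL-ALL), 57.2% (K562), 56.0% (REH) and 65.3% (SUP-B15). It was thus lower in the windows in the 4 T-ALL lines and REH and higher in K562 and SUP-B15, which had only 18 and 21 regions there.

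Sites called in a single line were found in the windows for every line, and the highest in rank of each is given here for all but SIL-ALL, whose site in 19p12 is named above. K562 had chr19:55880499-55881766, a wide region of 1268 bp with a score of 255 at percentile 89.5. DND41 had chr19:58897950-58898202 (score 169, percentile 77.5) and JURKAT had chr19:58978048-58978341 (score 112, percentile 70.7). REH had chr19:58838480-58838680 (score 78.0, percentile 64.0), HPB-ALL chr19:53237824-53238165 (score 161, percentile 59.9) and SUP-B15 chr19:54898948-54899238 (score 61.7, percentile 29.6). With 1 library per line, sites particular to a line and sites particular to its library cannot be told apart.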

How the data were processed

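The 7 deposited lists hold 1 row per peak, with its position in bp, a name and a score. The score, whose unit the authors do not state, served only to rank peaks inside a list or to set a floor. The submitters' processing notes name FastQC 0.10.1, Bowtie 1.1.1 and hg19. Peak names point to MACS. Its version, control and threshold, and how reads with several matches were treated, are not given in the sources consulted. Input libraries (5 of 12) were not analysed here. The members and lists were chosen with earlier results of these data known.

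A peak belonged to a window by its midpoint. Band names and centromeric bands came from the hg19 table of circlize 0.4.16. Densities were compared within lines by exact sign-flip permutation over 128 sign patterns, on log2 ratios with 0.5 peaks added to both counts, a value chosen after counts of 0 were seen, and lineages by exact permutation over 35 splits, both two-sided, with Benjamini-Hochberg adjustment over 4 windows and 5 lineage comparisons. Intervals are Wilson (shares) and exact Poisson (densities), at 95%. Named regions were, per window, the 3 with the most lines (ties by mean percentile), the top one shared by every T-ALL line alone and by the other or B-ALL lines alone, and over all windows the top one of every single line; the rest with 5 or more lines named in the text were chosen after their values were seen. The code was checked on lists simulated with known ratios. Alternatives were equal lists, 2 score floors, joining within 500 bp, edges moved by 100 kb, other comparison regions, 50% reciprocal overlap, membership by any overlap, and each line left out. Python 3.11.15, numpy 2.4.6, pandas 2.3.3, scipy 1.17.1 and matplotlib 3.10.9 were used.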

Additional observations from a re-analysis of the deposited data

Results flagged for a closer look

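The share of chromosome 19 peaks in the windows differed between T-ALL and other lines by 7.15 percentage points in all windows together, by 0.537 in the 19p12 window and by 4.19 in the 52.0 to 59.1 Mb window (adjusted exact permutation p = 0.0476 each). The 19p12 value rests on 4 or 5 peaks per T-ALL line against 0 in the other lines, and counts this small cannot settle it list by list. The median width of K562 peaks in the windows, 519 bp, stood far from the other lines (next 272 bp in SUP-B15, lowest 186.5 bp in SIL-ALL). Among 24 sets of values this was the 1 in which the gap from a line to its nearest neighbour passed Dixon's 95% critical value, which chance passes in about 1 of 20. The width is not particular to the windows: in the rest of the chromosome the K562 median was 476 bp, against 191 to 315.5 bp in the other lines.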

How the results depend on the processing

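Of 264 alternative values, 200 stayed on the same side of the threshold with the same sign, or changed little, 37 lost the threshold, 7 gained it, 16 moved and 4 reversed. Against the other autosomes the log2 density ratio turned to 0.12 for all windows, 0.46 for the 43.9 to 45.1 Mb window and 0.80 for the 52.0 to 59.1 Mb window, and was -0.34 with the threshold lost for the 36.5 to 38.5 Mb window, while width (log2 ratio -0.22) and percentile (-9.34) gained it. With peaks at or above the median of their own list the percentile difference turned to 0.0556. Width gained the threshold when peaks were joined within 500 bp (-0.14) and without band 19q13.42 (-0.21), as did percentile without that band (-11.4), with edges moved outward (-4.76) and without K562 (-5.84; range without each line -5.84 to -1.05). The cause was not tested. Mean density ratios against the short arm, the long arm, or the rest without band 19p13.2 kept direction and threshold in every window. Against the long arm the exact sign-flip permutation p was 0.0312 for the 36.5 to 38.5 Mb and 43.9 to 45.1 Mb windows. With 7 lines of the same sign it would be 0.0156, so not every line was lower there.

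The lineage differences (percentage points) for all windows, the 19p12 window and the 52.0 to 59.1 Mb window lost the threshold with equal lists (5.97, 0.389 and 4.01), with peaks at or above the own median (6.74, 0.438 and 3.99), joined within 500 bp (7.69, 0.564 and 4.66), without K562, T-ALL against B-ALL (6.80, 0.537 and 3.86), and as shares of the whole list (0.379, 0.0311 and 0.210). With each line left out they ranged from 5.97 to 8.02, from 0.524 to 0.560 and from 3.66 to 5.06; the smallest p is then 0.0667 or 0.1, so the loss follows from fewer lines.

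Regions of all 7 lines numbered 1 with equal lists, at the own median, with a common floor and at 50% reciprocal overlap, and 1 to 3 without each line. Regions of all 4 T-ALL lines only numbered 1 with equal lists and at the own median, 2 at 50% reciprocal overlap, 7 joined within 500 bp, and 4 to 10 without each line. Regions of 1 line alone numbered 70 with equal lists, 72 at the own median and 314 at 50% reciprocal overlap. Of the 22 entries for named regions, all kept their lines when joined within 500 bp, 12 with equal lists or a common floor and 11 at the own median.

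Read depth is unknown, which limits what a missing peak shows. No paired analysis was possible because, between lineages, no line has more than replicate 1; windows and rest were compared within each line.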
